A study of Mus musculus with 4 samples.

Results

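The genes described here are 51 components of the Wnt pathway: 19 Wnt ligands, 12 receptors and co-receptors, 7 secreted antagonists, 9 intracellular transducers and the 4 TCF/LEF transcription factors. They were chosen by gene symbol, and every Zeb1-associated region (peak) that the deposited list assigns to one of these symbols was taken, which gave 79 of the 17435 peaks. Of the 51 genes, 46 had at least 1 assigned peak and 5 had none.

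The data come from chromatin immunoprecipitation followed by sequencing (ChIP-seq) of Zeb1, a zinc finger repressor, in mouse embryonic stem cells (mESC) of the D3 line. The cells were grown without feeders and used at passages 5 to 8 in GS medium, a serum-free N2B27 medium (NDiff) with 1 μM PD0325901, which inhibits MEK, 3 μM CHIR99021, which inhibits GSK-3, and 20 ng/mL LIF. After fixation in 1% formaldehyde the chromatin was broken into fragments of about 200 bp, and 3 libraries were made with 8 μg of the anti-Zeb1 antibody H-102 and 1 library from input chromatin. All libraries thus share 1 cell line and 1 medium, the GSK-3 inhibitor included, and no untreated or Zeb1-depleted library enters the comparison, so the only contrast is Zeb1 ChIP over input.

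Each peak carries 1 number of treatment reads (Zeb1 ChIP), 1 number of input reads and 1 enrichment over input, each being the authors' mean. The list marks all scores as means, and with only 1 input library it is not known exactly what was averaged. No value per library was used here, so no spread between libraries and no p-value can be given, and every difference below is a description. The library depth was at least 20 M raw reads per the labels and is not known more closely from the list. The enrichment is normalised for mapped reads and had a median of 2.07 times the plain ratio of the listed reads. Peaks with few input reads have the least certain enrichment, and 6 of the 79 peaks had fewer than 10. The list holds no expression, so neither the cell type nor the activity of any of these genes could be checked against it.

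Wnt ligands are secreted lipid-modified glycoproteins that bind Frizzled receptors together with the co-receptors Lrp5 and Lrp6. Without ligand, a destruction complex of Axin, Apc and the kinases GSK-3 and CK1 marks β-catenin for degradation. Ligand binding recruits Dishevelled (Dvl) and inactivates the complex, and β-catenin then enters the nucleus and acts with TCF/LEF factors. The pathway drives primitive streak and mesendoderm formation in the early embryo, and inhibition of GSK-3 by CHIR99021 stabilises β-catenin in cultured mESC.

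A Zeb1 peak was assigned to 46 of the 51 Wnt pathway genes (90.2%), against 53.3% of the 21000 protein-coding genes of the curated RefSeq annotation. A peak centred within 5 kb of the transcription start site (TSS), the authors' limit for a promoter, was assigned to 45 of the 51 (88.2%), against 45.1% of protein-coding genes. The 5 genes without an assigned peak were the receptor gene Fzd3, the antagonist genes Dkk1 and Dkk2, and Gsk3a and Gsk3b, which encode both forms of GSK-3. Wnt8b alone had a peak but none within 5 kb. Of the genes with a peak, 28 had 1 and 12 had 2. The other 6, all ligand genes, had 3 or more (11.8% of the 51, against 4.59% of protein-coding genes). The highest enrichment of a gene's peaks reached 10 or more in 14 of the 51 genes (27.5%), against 9.95% of protein-coding genes. These shares include genes without any peak, so they partly repeat the difference in genes with a peak. Among genes with a peak, an enrichment of 10 was reached by 14 of 46, against 2089 of 11190 protein-coding genes. For 3 or more peaks the counts were 6 of 46 and 963 of 11190. The median of that highest enrichment was 7.79 over the 46 genes and 7.10 over the 11190 protein-coding genes with a peak.

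**Figure D1:**
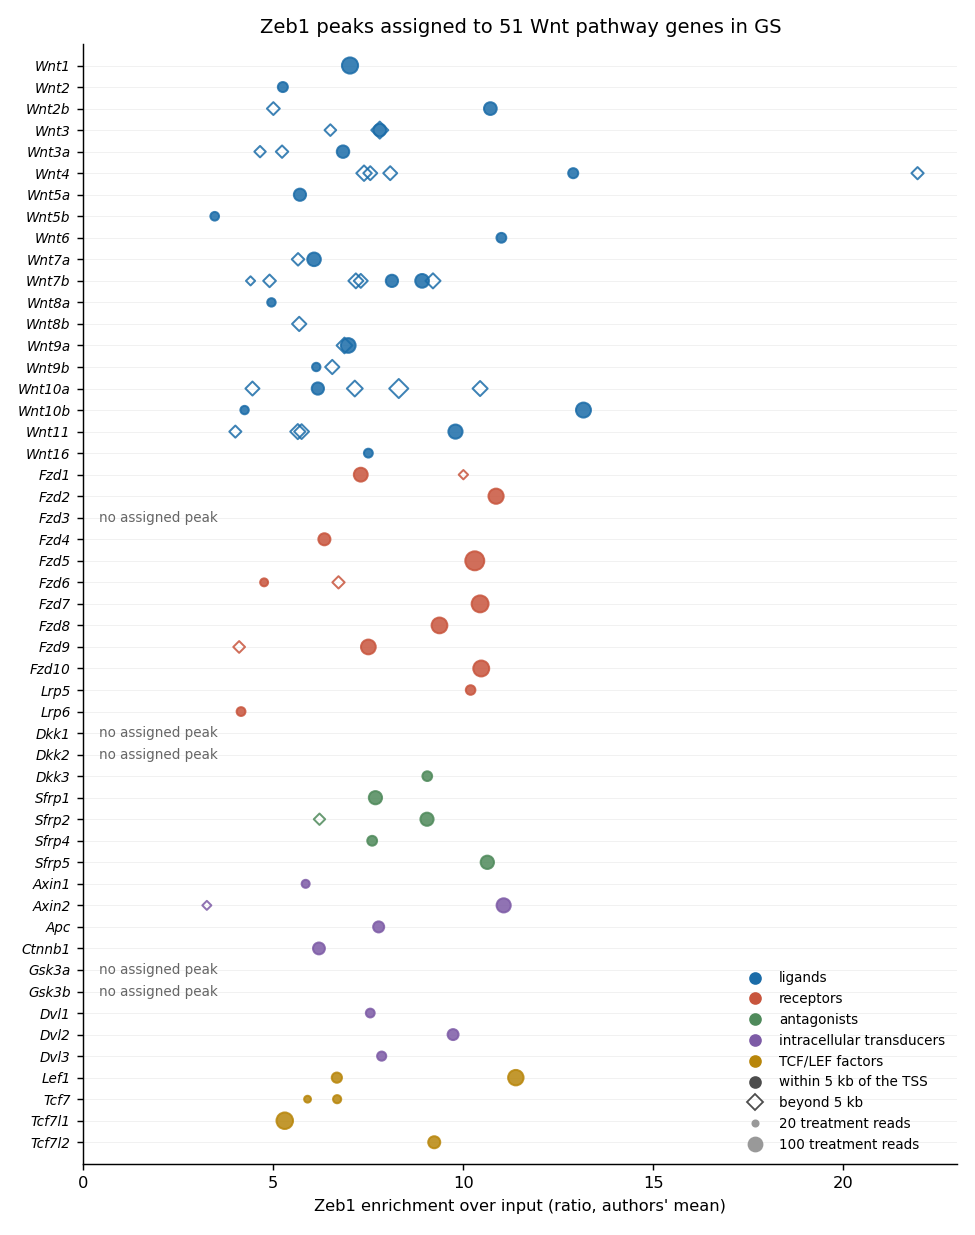
Enrichment of Zeb1 ChIP over input (ratio, the authors' mean) for each of the 79 peaks, with 1 line per gene and colours for the 5 roles. Filled circles are peaks within 5 kb of the TSS, open diamonds lie farther away and the marker area follows the treatment reads. The peaks lie between 3.25 and 21.95, the open diamonds fall mostly on ligand genes, and 5 genes have no assigned peak.

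The promoters of these genes are rich in G and C, and the share of genes with a promoter peak moved with that property over the whole genome. The median GC content of the 1 kb around the TSS was 64.8% for the 51 genes and 55.7% for protein-coding genes. Among protein-coding genes the share with a promoter peak was 28.9% at a GC content of 50 to 55%, 61.0% at 55 to 60%, 77.4% at 60 to 65% and 82.1% at 65% and over. The Wnt pathway genes had a promoter peak in 2 of 4, 10 of 11, 11 of 11 and 22 of 25 cases in these ranges. Their share was thus above that of all genes in each of the 4 ranges, by more between 55 and 65% GC than at 65% and over, where the largest number of them lay. The 4 genes under 55% were Wnt8a, Wnt8b, Tcf7l2 and Dkk1, of which Wnt8a and Tcf7l2 had an assigned promoter peak, while 43 of the 47 genes at 55% and over had one. Neither the Wnt8a nor the Tcf7l2 peak covered a TSS. Counting only peaks over a TSS, the genes were 0 of 4 under 55% and 43 of 47 at 55% and over. Over all protein-coding genes the share with an assigned promoter peak was 14.6% under 55% and 71.9% at 55% and over. The part of GC content in the share of Wnt genes with a peak was not tested.

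**Figure D2:**
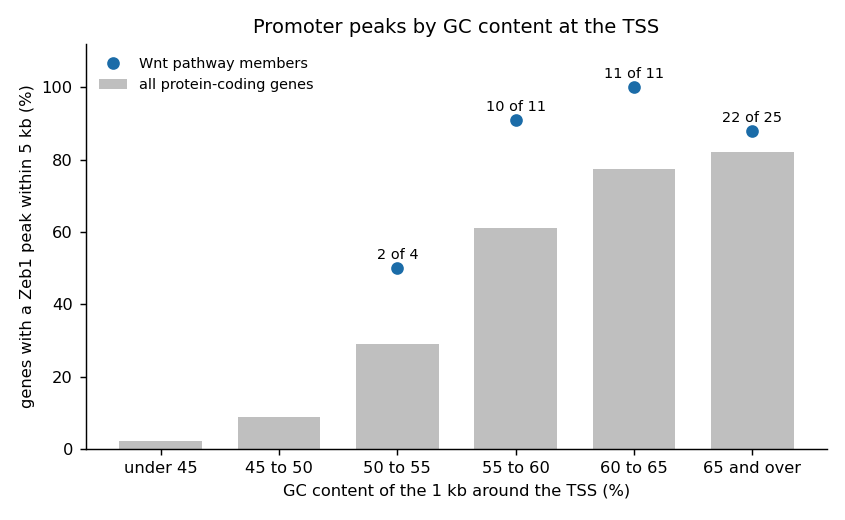
Share of genes with a Zeb1 peak within 5 kb of the TSS (%) by GC content of the 1 kb around the TSS (%). Grey bars are all protein-coding genes, and blue points are the Wnt pathway genes with their counts. The bars rise from 2.09% under 45% GC to 82.1% at 65% and over, and no Wnt pathway gene lies under 50%.

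The peaks of these genes were longer than most rather than denser. The 49 promoter peaks had a median length of 2650 bp and 76.5 treatment reads, against 1950 bp and 52.6 reads over all 10698 promoter peaks of the list. Per kb of peak the medians were 25.6 and 26.8 treatment reads. By role, the median per kb was 32.4 in receptor and 38.9 in antagonist genes. It was 20.9 in ligand, 23.3 in intracellular and 22.7 in TCF/LEF genes. Median lengths ran from 2100 bp in antagonist genes to 3150 bp in receptor genes. A length of 4 kb or more was found in 11 of the 49 (22.4%) and in 5.04% of all promoter peaks. The median enrichment was 7.60 and 6.74, respectively. A TSS of the assigned gene lay within 44 of the 49 peaks (89.8%, the same share as the 89.8% over promoter peaks of protein-coding genes), and 33 of the 49 were centred downstream of it (67.3%, against 74.8%).

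Zeb1 is known to bind the E-box CACCTG, which reads CAGGTG on the opposite strand. On either strand, 65 of the 79 peaks held at least 1 match (82.3%), against 82.1% of all peaks, so the share was that of any peak in the list. The density was 1.05 matches per kb over the 79 peaks and 1.19 per kb over the whole list. By length, a match was held by 4 of 7 peaks of up to 1450 bp (57.1%, against 70.1% of all peaks of that length), 26 of 31 from 1500 to 2350 bp (83.9%, against 81.9%) and 35 of 41 of 2400 bp and longer (85.4%, against 93.5%). The 14 peaks without a match included those over the start sites of Ctnnb1, Wnt2, Wnt5a, Dkk3 and Tcf7l1. In the RefSeq promoter sequences (build GRCm38.p6, 250 bases before to 50 after each start), which cover 36 of the 51 genes, 12 of 45 windows held a match, against 20.2% of all 32851 windows, and with 15 genes not covered nothing is read from that share.

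The following stretches show matches inside the peaks of genes described below and are given 5′ to 3′ on the strand of the gene, with each CACCTG or CAGGTG in capitals. The first 5 are the 250 bases before the TSS from RefSeq (GRCm38.p6): those of the ligand genes Wnt4 (chr4:137277385-137277634, plus strand), from its promoter peak with an enrichment of 12.89, Wnt9b (chr11:103749822-103750071, minus strand), which holds 2 matches, and Wnt3a (chr11:59290752-59291001, minus strand), that of Fzd5 (chr1:64737751-64738000, minus strand), which had the most treatment reads, and that of Sfrp5 (chr19:42202253-42202502, minus strand), the antagonist gene with the highest enrichment.
Wnt4: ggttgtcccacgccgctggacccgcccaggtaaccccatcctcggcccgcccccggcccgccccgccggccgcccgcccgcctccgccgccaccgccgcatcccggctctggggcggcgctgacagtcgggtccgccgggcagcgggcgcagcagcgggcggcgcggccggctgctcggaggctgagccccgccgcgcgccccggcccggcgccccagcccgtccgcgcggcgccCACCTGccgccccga
Wnt9b: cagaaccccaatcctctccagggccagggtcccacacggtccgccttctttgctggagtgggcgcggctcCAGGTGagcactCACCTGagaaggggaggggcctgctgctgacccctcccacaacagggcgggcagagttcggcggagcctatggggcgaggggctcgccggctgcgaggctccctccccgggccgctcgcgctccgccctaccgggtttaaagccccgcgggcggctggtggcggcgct
Wnt3a: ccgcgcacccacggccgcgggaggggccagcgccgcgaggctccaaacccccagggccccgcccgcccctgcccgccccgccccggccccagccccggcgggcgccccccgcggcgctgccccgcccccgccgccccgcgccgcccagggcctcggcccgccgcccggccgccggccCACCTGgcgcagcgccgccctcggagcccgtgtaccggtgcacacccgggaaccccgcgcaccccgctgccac
Fzd5: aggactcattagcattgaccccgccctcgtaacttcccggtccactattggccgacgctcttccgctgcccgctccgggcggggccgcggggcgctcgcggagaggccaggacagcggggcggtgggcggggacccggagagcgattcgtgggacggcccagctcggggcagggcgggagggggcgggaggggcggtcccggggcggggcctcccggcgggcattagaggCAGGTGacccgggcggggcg
Sfrp5: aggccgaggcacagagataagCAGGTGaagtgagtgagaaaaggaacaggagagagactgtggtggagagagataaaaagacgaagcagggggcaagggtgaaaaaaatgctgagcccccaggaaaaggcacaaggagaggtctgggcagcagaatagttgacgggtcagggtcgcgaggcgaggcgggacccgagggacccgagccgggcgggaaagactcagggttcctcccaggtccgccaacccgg

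The next 3 are intronic stretches, read from the same build, with 40 bases on either side of a match. They come from the intron 1 peak of Wnt3 (chr11:103795564-103795649, plus strand), from the promoter peak of Wnt10b, where 3 matches lie side by side in intron 1 (chr15:98775923-98776008, minus strand), and from the promoter peak of Axin2 (chr11:108922713-108922798, plus strand).
Wnt3: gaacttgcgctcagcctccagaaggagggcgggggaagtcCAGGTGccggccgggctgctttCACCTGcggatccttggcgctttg
Wnt10b: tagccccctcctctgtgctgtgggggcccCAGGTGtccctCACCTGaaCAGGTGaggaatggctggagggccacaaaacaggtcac
Axin2: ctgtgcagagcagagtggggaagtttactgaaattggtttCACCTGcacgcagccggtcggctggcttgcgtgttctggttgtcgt

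All 19 ligand genes had a Zeb1 peak, 18 of them within 5 kb of the TSS. For this and the role counts below, the shares of protein-coding genes were 53.3% with a peak and 45.1% within 5 kb. The share within 5 kb was 77.4% at 60 to 65% GC and 82.1% at 65% and over. The ligand genes carried 45 of the 79 peaks and 25 of the 30 that lay farther than 5 kb from the TSS, and those 25 belonged to 11 ligand genes. Distal peaks made up 55.6% of the peaks of ligand genes, 38.0% of all 79 and 38.6% of the whole list. Of the 25, 18 lay downstream of the TSS (72.0%, against 57.8% of the distal peaks of the list) and 7 upstream. The highest enrichment of a ligand gene ranged from 3.46 (Wnt5b) to 21.95 (Wnt4), with a median of 7.02. In 5 ligand genes (Wnt4, Wnt7b, Wnt8b, Wnt9b and Wnt10a) the most enriched peak was a distal one. The promoter peaks of ligand genes had a median of 20.9 treatment reads per kb, below the 32.4 of receptor genes and the 38.9 of antagonist genes. The medians of intracellular genes (23.3) and TCF/LEF genes (22.7) were closer to it.

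Wnt3, which is needed to form the primitive streak, had 3 peaks. The promoter peak (chr11:103772601-103775000) had its centre 375 bp upstream of the TSS, with 81.9 treatment and 21.9 input reads, for an enrichment of 7.80. A peak in intron 1 of 4, centred 21400 bp downstream (chr11:103794901-103796250), had 35.0 treatment reads against 12.5 in the input (enrichment 6.5). The peak in intron 2, at 36725 bp (chr11:103809001-103812800), had 74.5 treatment and 17.5 input reads, and its enrichment of 7.80 equalled that of the promoter. The intron 2 peak was longer (3800 bp against 2400 bp) and held 6 of the 10 matches to CACCTG found over the 3 peaks, while the promoter peak held 1.

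Wnt7b, a ligand with roles in lung and kidney development, had 7 peaks, the most of the 51 genes. Of the 27 protein-coding genes with 7 or more peaks it was the only one among the 51. RefSeq gives it 3 start sites, and all 3 lay under 2 of the peaks: the peak over the outer 2 (chr15:85579801-85584100) had 77.2 treatment and 19.2 input reads, for an enrichment of 8.12, and the peak over the inner one (chr15:85575601-85578700) had 96.7 treatment reads against 23.3 in the input (enrichment 8.91). The highest value in this gene was in intron 2, 19720 bp downstream of the nearer start site (chr15:85557101-85559600, 58.5 treatment and 12.5 input reads, enrichment 9.20). That peak held 8 matches to CACCTG, or 3.20 per kb. A weaker peak lay in intron 1 at 13445 bp (chr15:85563551-85565700, 21.5 treatment and 10.0 input reads, enrichment 4.40). The remaining 3 were upstream. They were centred 33554 bp (chr15:85614551-85616200, 41.5 and 17 reads, enrichment 4.90), 43729 bp (chr15:85624201-85626900, 57.4 and 18.6 reads, enrichment 7.17) and 52954 bp (chr15:85633951-85635600, 50 and 15 reads, enrichment 7.30) from the TSS. The list assigns 2 more peaks inside the 3′ part of Wnt7b to the neighbouring transcript 7530416G11Rik, with enrichments of 6.91 and 4.95.

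Wnt4, a ligand required in kidney and female gonad development, had 5 peaks and the highest enrichment of the 51 genes. That value, 21.95, came from a peak centred 11760 bp upstream (chr4:137265101-137266650) with 38.5 treatment reads over only 4.00 input reads. It stood at percentile 99.1 of all peaks for enrichment and at percentile 31.6 for treatment reads, and it held no CACCTG. The promoter peak (chr4:137276351-137278750) had 51.9 treatment and 8.43 input reads, for an enrichment of 12.89, at percentile 94.4. Its GC content of 67.2% was the highest of the 79 peaks. The other 3 peaks followed the gene: in intron 1 (chr4:137285451-137287800, 50 treatment and 12.0 input reads, enrichment 7.55), over exon 3 (chr4:137293751-137297350, 61.7 and 17.4 reads, enrichment 7.39) and just beyond its 3′ end (chr4:137299701-137302750, 50 and 11.8 reads, enrichment 8.08). Over the 5 peaks treatment reads ranged from 38.5 to 61.7 and input reads from 4.00 to 17.4.

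Wnt11, which signals mainly without β-catenin and acts in heart development, had 4 peaks. The promoter peak (chr7:98834301-98839650) was the longest of the 79 at 5350 bp, with 103 treatment reads against 20.4 in the input (enrichment 9.79). A peak 19012 bp upstream (chr7:98814351-98817850) had 58.7 treatment and 19.7 input reads and an enrichment of 5.64. One in an intron at 8005 bp (chr7:98845751-98847950) was close to it in value, with 56.4 and 22.1 reads and an enrichment of 5.74. The last, 49305 bp downstream (chr7:98887301-98889000, 37.5 and 18.0 reads, enrichment 4.00), lay in an exon of a neighbouring gene, so its link to Wnt11 rests on the nearest start site only.

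**Figure D3:**
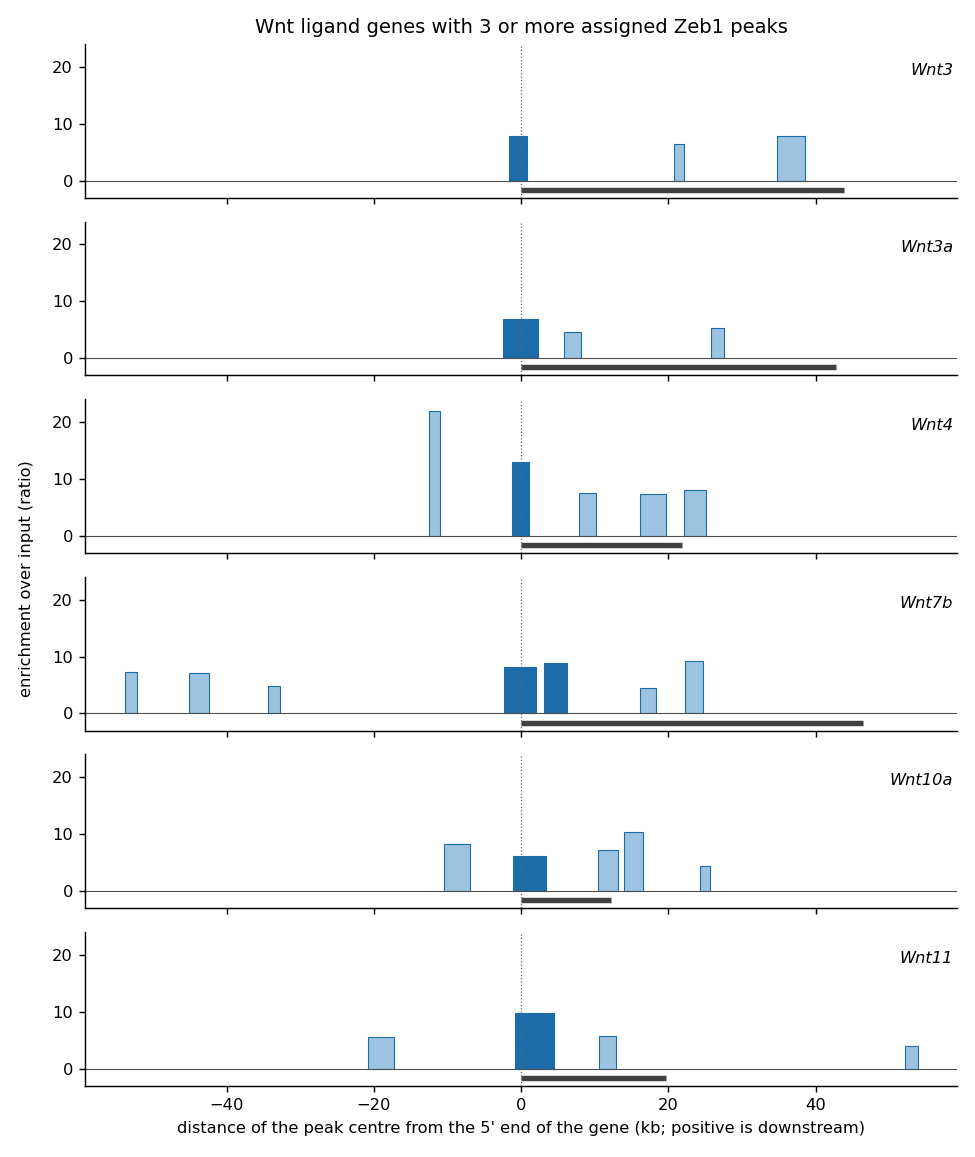
Zeb1 peaks of the 6 ligand genes with 3 or more assigned peaks, drawn to scale by the distance of the peak centre from the 5′ end of the gene (kb, positive is downstream). Bar width is the peak length, bar height the enrichment over input (ratio), dark bars are peaks within 5 kb of the assigned TSS, light bars are farther away, and the grey line is the gene. Each gene has a dark bar at its start, and in Wnt4, Wnt7b and Wnt10a a light bar is the tallest.

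The 51 genes include 4 pairs of neighbouring Wnt genes, and all 8 genes of these pairs had peaks. Counted over both genes with 5 kb on either side, the pairs Wnt3a and Wnt9a, Wnt6 and Wnt10a, and Wnt9b and Wnt3 held 5 peaks each, and the pair Wnt10b and Wnt1 held 3. The densest was Wnt6 and Wnt10a on chromosome 1, whose genes are 6699 bp apart and run the same way, with 16250 bp of peak in 42.3 kb. The other 3 pairs are divergent, with gaps of 16178, 24353 and 11706 bp.

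In the first pair, Wnt3a, which maintains mESC self-renewal in culture and patterns the posterior embryo, had 3 peaks. Its promoter peak (chr11:59288451-59293250) spanned 4800 bp and had 79.6 treatment and 25.6 input reads, for an enrichment of 6.83. The intron peaks, 6976 bp (chr11:59282651-59284900, 33.5 and 15 reads, enrichment 4.65) and 26676 bp (chr11:59263251-59264900, 39.7 and 16.1 reads, enrichment 5.23) downstream, were weaker. Wnt9a had 2 peaks of nearly equal enrichment, one at the promoter (chr11:59305901-59309900, 111 treatment and 30.9 input reads, enrichment 6.97) and one in intron 2 (chr11:59327001-59329150, 63.6 and 18.9 reads, enrichment 6.87).

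Wnt10a, a ligand of skin appendages and teeth, had 5 peaks, of which the promoter peak was not the strongest. That peak (chr1:74790901-74795450) had 77.0 treatment reads against 25.0 in the input (enrichment 6.17). The peak 15281 bp downstream, beyond the gene (chr1:74805951-74808650), had the highest enrichment, 10.44, with 58.3 treatment and 11 input reads. The most treatment reads, 93.6 over 21.8 in the input with an enrichment of 8.30, were in a peak centred 8719 bp upstream (chr1:74781501-74785100), which lies inside Wnt6. The other 2 peaks, over the 3′ end (chr1:74802451-74805250, 64.6 and 19.6 reads, enrichment 7.14) and 25006 bp downstream (chr1:74816351-74817700, 50.5 and 22.5 reads, enrichment 4.45), completed the set. Wnt6 itself was assigned only its promoter peak (chr1:74770201-74772800), with 49.5 treatment and 8.50 input reads, for an enrichment of 11.

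Wnt9b, an inducer of nephrons, had a promoter peak (chr11:103748901-103750550) with 36.1 treatment reads against 12.6 in the input (enrichment 6.13), and a peak in its last intron (chr11:103729851-103732700) with 52.0 and 14.5 reads and an enrichment of 6.55. The values of both were below those of the adjacent Wnt3 promoter. Wnt10b had the highest enrichment of all promoter peaks of these genes, 13.16 (chr15:98775651-98779500, 115 treatment and 19.9 input reads), at percentile 94.8 of the list. This peak also held 9 matches to CACCTG, the most in any of the 79 peaks and as many as one peak each of Wnt7b and Wnt10a. A second Wnt10b peak 2350 bp upstream (chr15:98779551-98781450) reached only 4.24, with 36.1 and 19.1 reads. The divergent neighbour Wnt1, a ligand of midbrain development, had 1 peak of 4600 bp over its start (chr15:98788801-98793400) with 134 treatment reads, the most of any ligand gene, against 41.2 in the input (enrichment 7.02).

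Among the other ligand genes, Wnt5b had the lowest value, 3.46, from a promoter peak (chr6:119543151-119545800) with 38.6 treatment and 25.7 input reads. Wnt2b, with its promoter at 10.71, was the highest of this group. Wnt2 (5.25), Wnt5a (5.70), Wnt7a (6.07) and Wnt16 (7.5) also had their most enriched peak at the promoter. Wnt5a and Wnt11, both ligands known mainly for signalling without β-catenin, thus differed in enrichment (5.70 and 9.79). The related ligands Wnt8a and Wnt8b shared a different position: their only peaks lay over the last exon, exon 6 of 6, centred 4822 and 18178 bp downstream of the TSS. The enrichment was 4.95 for Wnt8a and 5.68 for Wnt8b.

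Of the 12 receptor and co-receptor genes, 11 had a peak and all 11 had one within 5 kb. The receptor genes had 14 peaks in all, 3 of them distal. The highest enrichment ranged from 4.15 (Lrp6) to 10.86 (Fzd2) with a median of 10.00, above the 7.02 of the ligand genes. Over promoter peaks alone the medians were 9.37 and 6.99. The highest enrichment reached 10 or more in 6 of the 12 receptor genes (Fzd1, Fzd2, Fzd5, Fzd7, Fzd10 and Lrp5), against 9.95% of protein-coding genes. For Fzd1 that value came from a distal peak with 22.5 treatment and 5.50 input reads, centred on a LINE-1 element (L1Md_T) in the deposited annotation, and its promoter peak had 7.30. This distal Fzd1 value is also the median of 10.00. The Lrp5 peak too had fewer than 10 input reads (9.71).

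The Frizzled genes differed by gene structure. In 7 of the 10 the whole coding sequence lies in 1 exon, and in these the promoter peak ran over the coding sequence: it covered 89.7% of the coding bases in Fzd1 and 100% in Fzd2, Fzd5, Fzd7, Fzd8, Fzd9 and Fzd10. These 7 peaks were 2750 to 5100 bp long and had 98.7 to 184 treatment reads and an enrichment of 7.30 to 10.86. The other 3 genes, whose coding sequence is split, had lower values. The Fzd4 peak, with 2 coding exons, had 74.7 treatment reads, an enrichment of 6.34 and 17.7% of the coding bases. Fzd6, with 6 coding exons, had 32.3 treatment reads and an enrichment of 4.76 at its promoter, and no coding base in that peak. Fzd3, also with 6, had no peak, and the nearest one in the list was 81437 bp from its TSS. This grouping was made after the values were seen. Per kb of peak, the 7 genes had 29.6 to 36.7 treatment reads, Fzd4 had 31.8 and Fzd6 had 18.5, so that Fzd4 differed from them in peak length and not in reads per kb.

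**Figure D4:**
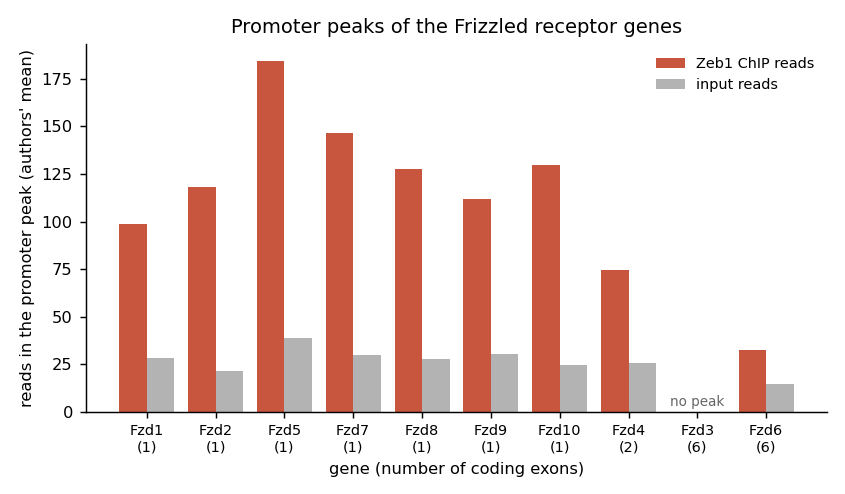
Treatment and input reads (the authors' mean) in the peak within 5 kb of the TSS of the 10 Frizzled genes, ordered by the number of coding exons, which stands in brackets. The 7 genes with 1 coding exon have 98.7 to 184 treatment reads, Fzd4 has 74.7, Fzd6 has 32.3 and Fzd3 has no peak.

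Fzd5, a receptor needed for yolk sac blood vessels, had the most treatment reads of the 79 peaks, 184 over 38.6 in the input (chr1:64734201-64739300, enrichment 10.30), at percentile 99.4 of the list for treatment reads. Fzd2 had the highest enrichment among receptor genes, 10.86, in a peak of 3650 bp (chr11:102603901-102607550) with 118 treatment and 21.6 input reads. Fzd7, a receptor known to be expressed in mESC, was close to both, with 147 treatment and 29.9 input reads, for an enrichment of 10.44 (chr1:59480801-59484800). The co-receptor genes Lrp5 and Lrp6, whose proteins act together with Frizzled, were apart. Lrp5 had an enrichment of 10.19 over few input reads (chr19:3685251-3686850, 47.1 treatment and 9.71 input reads). The Lrp6 promoter peak had the lowest enrichment among the promoter peaks of the receptor genes, 4.15 (chr6:134565751-134567900, 40 and 18.5 reads). The Lrp5 peak also held 4.38 matches to CACCTG per kb, the highest density of the 79, and the Lrp6 peak 0.465.

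Of the 7 antagonist genes, 5 had a peak, each with 1 at the promoter, and Sfrp2 had another 23154 bp downstream. The secreted Frizzled-related proteins (Sfrp), which bind Wnt ligands, had a peak in all 4 genes studied here. Sfrp5 was the highest with an enrichment of 10.63 (chr19:42200851-42202900, 91.0 treatment and 19 input reads), and its 44.4 treatment reads per kb were the most of the 79 peaks. Sfrp4 was the lowest at 7.60 (chr13:19622451-19624100, 49.6 and 13.6 reads), with Sfrp2 (9.04) and Sfrp1 (7.69) between them. Per kb, Sfrp2 (42.3) and Sfrp1 (38.9) also stood near Sfrp5, against a median of 26.8 over all promoter peaks. The Dickkopf genes, which encode blockers of Lrp5 and Lrp6 (Dkk3 is a divergent member of the family), were split. Dkk3 had a promoter peak with an enrichment of 9.05, while Dkk1 and Dkk2 had none. The peak nearest to Dkk1 was 9971 bp from its TSS, with an enrichment of 18.08 from 24 treatment reads over only 4.00 input reads. The one nearest to Dkk2 was 520467 bp away, the largest such distance of the 5 genes without a peak.

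Of the 9 intracellular genes, 7 had a peak, each at the promoter, with the highest enrichment between 5.85 (Axin1) and 11.06 (Axin2) and a median of 7.77. Axin1 and Axin2 encode the scaffold of the destruction complex, and Axin2 is itself a target of β-catenin. The Axin2 promoter peak (chr11:108919701-108923700) spanned 4000 bp with 103 treatment and 19.1 input reads, and a distal peak 28324 bp upstream (chr11:108891451-108892600, 21.0 and 12.5 reads) had 3.25, the lowest enrichment of the 79 peaks. The Axin1 peak (chr17:26137951-26139750) had 33.0 treatment and 11 input reads. The gene of the scaffold Apc had 7.77 and Ctnnb1, which encodes β-catenin, 6.20, below the median of all promoter peaks, 6.74. The genes of the 3 Dishevelled proteins, which relay the signal from Frizzled, had 7.55 (Dvl1), 9.73 (Dvl2) and 7.85 (Dvl3).

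For the GSK-3 genes, the list assigns nearby peaks to other genes. A peak of 97.4 treatment and 29.1 input reads with an enrichment of 7.01 covered the start of Gsk3b (chr16:38087701-38090650), its centre 174 bp from the TSS. The list gives this peak to BC031361, a transcript that starts beside it. For Gsk3a, a peak with an enrichment of 9.87 lay 1609 bp beyond the gene and was assigned to 9130221H12Rik, and the peak nearest to the Gsk3a TSS was 6574 bp away and assigned to Erf. Counting peaks by overlap with the gene and 5 kb on either side, whatever gene the list names, 48 of the 51 genes had a peak (94.1%, against 58.1% of protein-coding genes counted the same way), and Fzd3, Dkk1 and Dkk2 still had none. Over all genes, 14 cases were found in which such a peak was assigned to another gene. They included a peak within Tcf7l1 with an enrichment of 11.06, assigned to Gm15401, and one within Wnt5b with 173 treatment reads and an enrichment of 6.76, assigned to Fbxl14. In enrichment these exceeded the peaks assigned to Tcf7l1 (5.30) and Wnt5b (3.46). In reads the peak given to Gm15401 was lower, with 47.7 treatment reads over only 8.86 input reads. The peak assigned to Tcf7l1 had 140 and 51.9 reads.

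All 4 TCF/LEF genes had a peak, and their 6 peaks were all within 5 kb of the TSS. Lef1, whose product activates β-catenin targets, had the highest enrichment, 11.38, from a peak over the TSS (chr3:131109701-131113050) with 123 treatment and 24 input reads, and a second peak 3472 bp upstream had 6.67. Tcf7l1, which encodes Tcf3, the main repressive TCF of mESC, had the lowest, 5.30, although its 140 treatment reads were the most of the 4 (chr6:72786851-72790600). The input reads in that peak, 51.9, were also the most of the 79. Tcf7l2 (9.23) and Tcf7 (6.68 and 5.90) lay between. The Tcf7l2 peak was centred 1765 bp downstream of its assigned TSS and did not cover it. Per kb, the main Tcf7 peak had 10.7 treatment reads and those of Lef1 and Tcf7l1 had 36.6 and 37.3.

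For comparison, 58 further genes of the pathway were taken from textbook roles. Of these, 43 had a promoter peak (74.1%), against 88.2% of the 51 and 45.1% of protein-coding genes, and the median of their best promoter peak was 8.28 against 7.69. Of the 58, 2 had 3 or more peaks (Bcl9l and Ccnd1), and over protein-coding genes the share was 4.59%. All 11 genes of co-receptors and planar polarity had a promoter peak, from Prickle2 (2.99) to Ptk7 (13.24), the latter encoding a pseudokinase co-receptor. R-spondin genes and their receptors had one in 5 of 7, among them Lgr5 (13.88), while Lgr4 and Lgr6 had no peak. Of 10 inhibitor genes 6 had one, with Frzb (12.01 over 14.9 input reads) and Wif1 (11.20 over 8.50 input reads), both encoding proteins that bind Wnt ligands, near the top and Dkk4, Dkkl1, Kremen2 and Sostdc1 without. The cytoplasmic regulators had 8 of 10, including Csnk1a1, which encodes the CK1α of the destruction complex, at 15.54 over only 7.20 input reads. Of the nuclear cofactors, 6 of 9 had one, and the peak of the corepressor gene Tle3 had 216 treatment reads. Both secretion genes, Porcn and Wls, lacked a promoter peak, and of the ligases that remove receptors Znrf3 had one (3.30) and Rnf43 none. Of 7 target genes 6 had one, including the mesodermal gene T (8.93), Sp5 (10.09) and Cdx2 (8.28).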

How the data were processed

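Zeb1 ChIP-seq was done in 3 libraries with 1 input library of mESC in GS. The authors trimmed the reads, drew an equal number per sample, aligned them uniquely to mm10 with STAR 2.4.2a, removed duplicates with Picard 1.136, called broad peaks against input, kept peaks found in more than 1 library as unified regions and annotated them with HOMER 4.7. FastQC 0.11.2 is also named in the submitters' processing notes. The deposited list gives the mean signal in reads of treatment and input, the fold enrichment over input (a ratio normalised by the authors for mapped reads) and the distance in bp from peak centre to the TSS. The deposited p-value is 0 for all 17435 peaks and was not used.

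Peaks were taken by the gene symbol of the list, which matched RefSeq for all 51 genes. For 71 of the 79 peaks the listed distance lay within 2 bp of that computed from RefSeq, and for all 79 within 100 bp. Python 3.11.15, pandas 2.3.3, NumPy 2.4.6 and pysam 0.24.0 were used, and the counting steps were tested on simulated data. Genes with full values were, in each role, those with the highest and lowest best enrichment, those with 3 or more peaks, neighbouring members, Wnt3 and Wnt7b; others named with values, such as Fzd5, Fzd7, Lrp5 and the Gsk3 genes, were chosen after their values were seen. The genes, lists and comparisons were chosen with earlier results of these data known.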

Additional observations from a re-analysis of the deposited data

How the results depend on the processing

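The counts of genes kept within 1.5 times of the values given above under each alternative tried. Genes with an assigned peak numbered 43 (84.3%) with an enrichment of at least 5 (against 43.6% of protein-coding genes) and 48 by overlap (94.1%, against 58.1%). Genes with a promoter peak numbered 36 within 1 kb (70.6%, against 41.1%), 45 within 10 kb (88.2%, against 46.8%), 46 with any peak within 5 kb of any RefSeq TSS of the gene, whatever gene the list names (90.2%, against 51.5%) and 41 with an enrichment of at least 5 (80.4%, against 37.0%). The peaks numbered 67 with an enrichment of at least 5 and 76 when those closer than 1 kb were merged, and those over the genes numbered 68 without flanks and 77 by peak centre against 79.

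The median highest enrichment, 7.79, was 7.69 from promoter peaks alone and 7.64 from the peak nearest to the TSS. It was 7.64 with peaks of at least 10 input reads, an alternative chosen after seeing the data, under which 10 instead of 14 genes reached an enrichment of 10 (19.6%, against 5.40% of protein-coding genes) and the distal Wnt4 peak drops out. Both shares include genes without any peak. A match to CACCTG lay in the central 500 bp of 33 peaks instead of 65 over the whole peak (41.8%, against 41.4% of all peaks), where a shorter stretch is searched. The 8-base Zeb1 motif (CNCACCTG, CNTACCTG, TNCACCTG or TNTACCTG, either strand, 2 of the 4 forms containing CACCTG) lay in 65 (82.3%, against 76.8%), of which 61 also held CACCTG. Of the 58 further pathway genes, 35 had a promoter peak within 1 kb, against 41.1% of protein-coding genes. A promoter peak with an enrichment of at least 5 was found in 35 of the 58, against 37.0%. Leaving out single libraries could not be done, because the list holds means only. No paired analysis was possible because the list holds no value per library and no test was made.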
